A study of Mus musculus with 9 samples.

Results

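Mouse bone marrow cells enriched for mature megakaryocytes (mMKs) were studied before and after ionizing radiation (IR). The subunits of the transcription factor NF-κB and the inhibitors that its own activity induces were examined in them. The members are 10 genes given by name, of 37316 genes named on the array's usable probes: the subunit genes Nfkb1, Nfkb2, Rel, Rela and Relb, the inhibitor genes Nfkbia, Nfkbie, Nfkbiz and Bcl3 of the IκB family, and Tnfaip3, which encodes the enzyme A20. All 10 were matched by symbol, and all 10 passed the filter on dim probes. Each group held 3 arrays, 9 in all. Ctrl mice were not irradiated, and the methods describe a sham irradiation of control mice. The other mice were studied at 1 or 3 days post IR (1 dpi, 3 dpi) after 5 Gy of γ-rays. All samples came from male mice. The methods describe wild-type C57BL/6 mice for the study, and no source used here states the strain or age of the mice behind these arrays. In the methods, mMKs were obtained by positive selection for CD41 followed by CD42d, and methods and labels call the cells used for RNA sorted mMKs. The series is described as separate experiments with different donors, and the p-values measure the spread between these arrays. The paper defines n as the number of mice in an experiment, and gives n = 3 for microarray values of mMKs. Pooling of RNA from several animals for an array is not mentioned in the sources used here.

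NF-κB is a family of dimers that wait in the cytoplasm, held by IκB proteins. Signals from cytokine receptors, pattern recognition receptors or DNA damage activate the IκB kinase (IKK), the IκB protein is degraded, and the dimer enters the nucleus. Among the genes it then induces are its own inhibitors, IκBα (Nfkbia) and A20 (Tnfaip3), so that a rise of their mRNA is a common readout of a recent NF-κB response. A second branch, the non-canonical pathway, processes p100 (Nfkb2) and releases dimers with RelB. Megakaryocytes carry both cytokine receptors and pattern recognition receptors.

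Levels are log2 intensities after subtraction of the 75th percentile of the array, and a value of 0 is that percentile. A level belongs to the brightest probe of the gene and is comparable between arrays, not between genes. The share of spots well above background was 69.1%, 79.5% and 80.8% for the Ctrl arrays in order of replicate, between 72.3% and 75.6% at 1 dpi, and between 81.6% and 81.8% at 3 dpi. Ctrl replicate 1 was alone on slide 1, and the other 8 arrays shared slide 2. With this scaling the median log2 change over all 29410 genes tested was 0.25 at 1 dpi and 0.11 at 3 dpi against Ctrl, and -0.11 from 1 to 3 dpi. Without Ctrl replicate 1 the medians against Ctrl were 0.15 and 0.01, so values relative to all genes depend on that array. Changes are therefore given as fitted by limma and, where it matters, relative to that median. In a bulk sample, fewer cells of a type and less RNA per cell cannot be told apart. Shuffling the 6 arrays of a comparison exactly could never reach a p below 0.10, so the tests given are those of the fit across all genes.

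At 1 dpi Tnfaip3, Nfkbia, Nfkbiz and Bcl3 rose, Nfkbie fell, and among the subunits Nfkb2 rose while Nfkb1 fell at its brightest probe. Of the 10 members, 9 passed an adjusted p of 0.05, as did 55.9% of all genes, 7 of them higher (34.8% of all genes) and 2 lower (21.1%). Only Tnfaip3 also reached a 2-fold change, 1 of 10 members against 15.2% of all genes, and it did not reach it after quantile normalization (alone or after normexp background correction), with scaling to the array median or in the deposited log2 table. With scaling to the array median 5 of 10 members passed the adjusted p, and 49.1% of all genes did. Whether members passed more often than other genes was not tested.

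At 3 dpi the pattern was different. Bcl3 had the largest change of the members and Relb was clearly higher at its brightest probe. Tnfaip3, Nfkbia and the brightest probe of Nfkbiz were still above Ctrl but by less than at 1 dpi. Of the 10 members, 6 passed the adjusted p against Ctrl, all of them higher. Over all genes 32% passed, 16.9% higher and 15.1% lower. At the 2-fold limit 1 member was called, Bcl3, where 8.8% of all genes were. With scaling to the array median 3 members passed, against 25% of all genes. The comparisons of 1 dpi and 3 dpi with Ctrl share the Ctrl arrays. From 1 to 3 dpi, 7 of the 10 members passed the adjusted p, against 44.6% of all genes. Of these, 4 were higher (19.8% of all genes) and 3 lower (24.9%), and 0 reached 2-fold (8.8%). Median scaling gave 5 members here, 4 higher and 1 lower, against 35.7% of all genes, and the deposited table gave 5 of 9 against 49.7%.

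**Figure D1:**
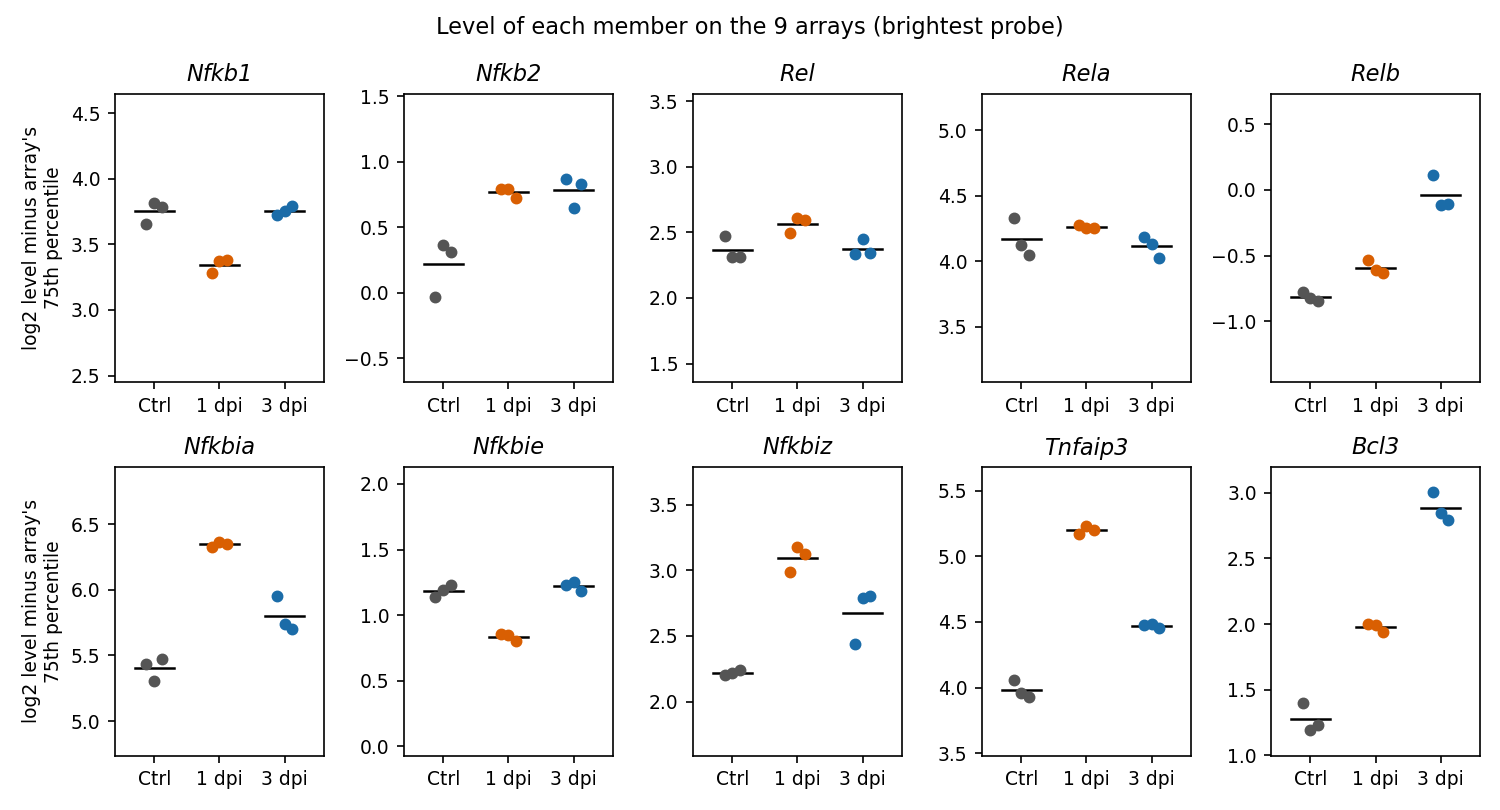
Level of the brightest probe of each member on the 9 arrays (y axis: log2 intensity minus the array's 75th percentile, each panel spanning the same 2.2 log2 units; points: arrays; bars: group means of 3 arrays). Tnfaip3 and Nfkbia peak at 1 dpi, Bcl3 and Relb are highest at 3 dpi, Nfkb1 and Nfkbie are lowest at 1 dpi, and the 3 dpi arrays of Rela overlap with Ctrl and read 4.03 to 4.18.

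The feedback inhibitors are taken first. Tnfaip3 encodes A20, which edits ubiquitin chains on signalling proteins upstream of IKK and so ends the response. Its only probe (mm9, chr10:18720776-18720835) read 4.06, 3.96 and 3.93 on the Ctrl arrays, 5.17, 5.23 and 5.20 at 1 dpi, and 4.48, 4.48 and 4.45 at 3 dpi. The groups do not overlap, and every array at 3 dpi lies between the Ctrl arrays and those at 1 dpi. The rise at 1 dpi was 1.22 on the log2 scale (SE 0.06, 2.32-fold, adjusted p = 3.99e-06), and 0.97 relative to all genes. At 3 dpi the level was 0.49 above Ctrl (SE 0.06, adjusted p = 4.59e-04), and 0.36 with median scaling, where the call was lost (adjusted p = 0.0858). From 1 to 3 dpi it fell by 0.73 (SE 0.06, adjusted p = 8.52e-05).

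Nfkbia encodes IκBα, the inhibitor that is degraded and made anew in each canonical response. Its probe (mm9, within chr12:56590945-56591440) read 5.43, 5.30 and 5.47 in Ctrl, 6.33, 6.37 and 6.35 at 1 dpi and 5.96, 5.74 and 5.70 at 3 dpi. All 3 groups are separate, in the same order as for Tnfaip3. The rise was 0.94 at 1 dpi (SE 0.08, 1.92-fold, adjusted p = 8.55e-05) and 0.40 at 3 dpi (SE 0.08, adjusted p = 0.00871). The rise at 1 dpi was 0.52 after quantile normalization and in the deposited log2 table. It was 0.53 with normexp plus quantile normalization and 0.63 with scaling to the array median. For Nfkbia the deposited table holds the same probe as quantile normalization, with values within 0.0021 of it, so these 2 are nearly 1 result. The difference from Ctrl at 3 dpi was not past the threshold with median scaling (0.27, adjusted p = 0.195) and in 1 further alternative. Between the times the level fell by 0.55 (adjusted p = 0.00155). That fall missed the threshold after quantile normalization, where it was -0.19 (adjusted p = 0.0763), with normexp plus quantile normalization (adjusted p = 0.0504), with scaling to the array median (adjusted p = 0.0714) and in the deposited log2 table (adjusted p = 0.0861).

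Nfkbiz encodes IκBζ, a nuclear member of the IκB family that helps NF-κB to induce a secondary group of genes such as Il6. The brightest of its 3 probes (mm9, chr16:55812091-55812150) gave 2.20, 2.22 and 2.24 in Ctrl, 2.99, 3.18 and 3.13 at 1 dpi, and 2.44, 2.79 and 2.80 at 3 dpi. The 3 Ctrl arrays are close together, while at 3 dpi replicate 1 lies nearer to Ctrl than the others do. At 1 dpi the log2 change was 0.88 (SE 0.11, adjusted p = 3.93e-04), and by 3 dpi it was 0.46 (SE 0.11, adjusted p = 0.0139). The change at 3 dpi missed the threshold without 3 dpi replicate 2 (adjusted p = 0.0549) or without 3 dpi replicate 3 (adjusted p = 0.0530), with scaling to the array median (adjusted p = 0.142), with the mean of the probes (adjusted p = 0.0829) and in 1 further alternative. The fall from 1 to 3 dpi, -0.42 (adjusted p = 0.0151), was lost with median scaling (adjusted p = 0.259), without 1 dpi replicate 2 (adjusted p = 0.0546) and in 1 further alternative. A second probe of the gene read 0.56 above Ctrl at 1 dpi and 0.01 at 3 dpi. The remaining probe was not well above background on any of the 9 arrays.

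Bcl3 encodes a nuclear IκB protein that binds p50 and p52 dimers on DNA. On its bright probe (mm9, chr7:20393826-20393885) the Ctrl arrays read 1.40, 1.19 and 1.23, those at 1 dpi 2.003, 1.995 and 1.943, and those at 3 dpi 3.01, 2.84 and 2.80. The gene was higher on every array at 1 dpi than in Ctrl, and higher again on every array at 3 dpi. The rise over Ctrl was 0.71 at 1 dpi (SE 0.08, 1.63-fold, adjusted p = 3.04e-04) and 1.61 at 3 dpi (SE 0.08, 3.05-fold, adjusted p = 5.37e-06). The further rise between the times was 0.90 (SE 0.08, adjusted p = 1.59e-04). With scaling to the array median the rise at 1 dpi was 0.39 (adjusted p = 0.0594). The other probe of the gene was not well above background on any array, and no change is given for it.

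Nfkbie encodes IκBε, an inhibitor that responds more slowly than IκBα in cells where both were followed. It went the opposite way. Its level was 1.14, 1.19 and 1.23 in Ctrl, 0.86, 0.85 and 0.81 at 1 dpi and 1.23, 1.25 and 1.18 at 3 dpi (mm9, chr17:45700000-45700059). The arrays at 1 dpi are all below the others, while Ctrl and 3 dpi overlap. Nfkbie fell by 0.35 at 1 dpi (SE 0.05, adjusted p = 0.00132). This change was -0.60 relative to all genes and -0.66 with scaling to the array median. From there to 3 dpi it rose by 0.38 (SE 0.05, adjusted p = 0.00116). The difference of 3 dpi from Ctrl was 0.03, with a 95% interval from -0.09 to 0.16.

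**Figure D2:**
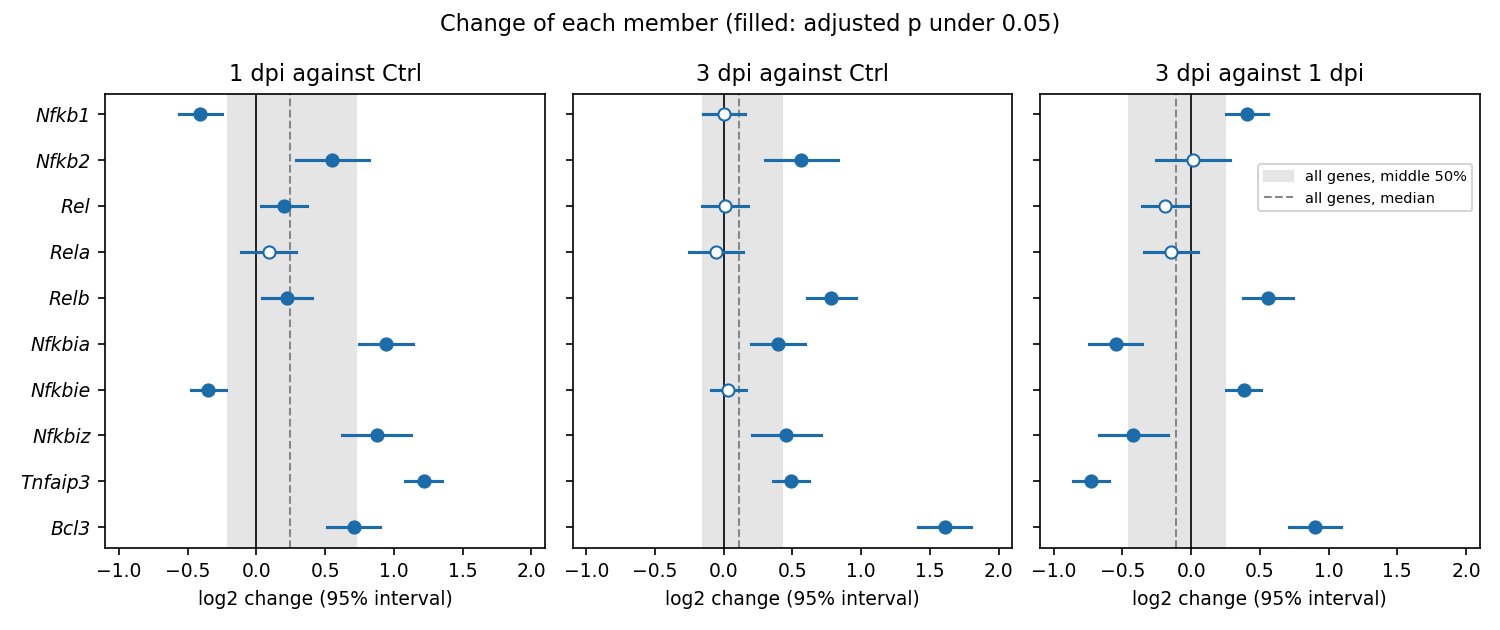
Log2 change of each member in the 3 comparisons (x axis; points: fitted change, filled where the adjusted p is under 0.05; lines: 95% intervals; grey band and dashed line: middle 50% and median of all genes tested). The points of Tnfaip3 (1.22), Nfkbia (0.94) and Nfkbiz (0.88) lie to the right of the band at 1 dpi and those of Bcl3 (1.61), Relb (0.78), Nfkb2 (0.56), Tnfaip3 (0.49) and Nfkbiz (0.46) do so at 3 dpi, while Rela has intervals that reach 0 in all 3 comparisons.

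Promoter sequence is given as a description, since NF-κB is known to bind near genes of this kind. The RefSeq table of promoters (GRCm38.p6) held 7 of the 10 members. Nfkb1, Relb and Nfkbiz have no entry. In the 250 bases before each start site, both strands were searched for the 10-base κB consensus. At least 1 window with a match was found for 5 of the 7 genes, Nfkb2, Rel, Nfkbia, Nfkbie and Tnfaip3, and none for Rela and Bcl3. Over all 27025 genes of the table, 4.46% had such a match, and of 29 listed NF-κB target genes with an entry 10 had one (34.5%). A match is a description of the letters, and its absence says only that these letters are not in the window. The members were not chosen by sequence, but genes known to answer to NF-κB were. At 1 dpi, Nfkb2, Nfkbia and Tnfaip3, each with a match, rose by 0.55, 0.94 and 1.22. Nfkbie, also with a match, fell by 0.35, and Rel, with a match, changed by 0.20. Rela and Bcl3, without a match, changed by 0.09 and 0.71. Whether matches go with the changes was not tested.

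The windows are shown for the 3 most changed inhibitors and for Nfkb2, with the consensus matches in capitals, 5′ to 3′ on the strand of the gene. Nfkbia lies on the minus strand (chr12:55492648-55492897 in GRCm38.p6), with 1 match from 29 to 20 bases before the start site. Of the start sites of Tnfaip3 in the table the outermost is shown (minus strand, chr10:19015411-19015660), with matches from 125 to 116 and from 12 to 3 bases before it, while the window of the other (chr10:19011964-19012213) holds 0 matches. The window of Nfkb2 is that of its outermost start site (plus strand, chr19:46304487-46304736) and holds 2 separate stretches, the first a run of overlapping matches. That of Bcl3 (minus strand, chr7:19822756-19823005) holds none.
Nfkbia: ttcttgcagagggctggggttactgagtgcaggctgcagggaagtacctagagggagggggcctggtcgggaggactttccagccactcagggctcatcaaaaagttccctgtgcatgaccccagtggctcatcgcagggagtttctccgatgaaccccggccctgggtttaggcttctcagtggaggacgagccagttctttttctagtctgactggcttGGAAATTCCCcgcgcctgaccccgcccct
Tnfaip3: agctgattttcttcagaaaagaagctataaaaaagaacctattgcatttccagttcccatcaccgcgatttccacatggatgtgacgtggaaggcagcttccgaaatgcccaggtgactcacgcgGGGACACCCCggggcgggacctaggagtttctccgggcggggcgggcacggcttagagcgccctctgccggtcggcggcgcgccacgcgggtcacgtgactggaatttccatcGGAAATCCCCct
Nfkb2: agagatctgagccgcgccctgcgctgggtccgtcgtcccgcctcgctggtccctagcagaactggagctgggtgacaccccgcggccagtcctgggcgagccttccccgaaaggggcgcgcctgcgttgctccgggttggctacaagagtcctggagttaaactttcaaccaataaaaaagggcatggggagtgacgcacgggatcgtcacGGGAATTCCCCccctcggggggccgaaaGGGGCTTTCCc
Bcl3: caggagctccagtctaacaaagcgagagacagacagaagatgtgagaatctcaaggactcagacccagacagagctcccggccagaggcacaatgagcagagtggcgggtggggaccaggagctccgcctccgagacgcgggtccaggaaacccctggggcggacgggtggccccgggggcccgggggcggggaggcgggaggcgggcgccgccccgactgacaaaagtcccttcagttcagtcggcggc

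The subunits follow. Nfkb2 encodes p100, the precursor of p52, and its mRNA is itself induced by NF-κB. The brightest of 2 probes (mm9, chr19:46386440-46386499) read -0.03, 0.37 and 0.31 in Ctrl, 0.80, 0.79 and 0.72 at 1 dpi, and 0.87, 0.65 and 0.83 at 3 dpi. All irradiated arrays lie above all Ctrl arrays, of which replicate 1 is the lowest, and both times overlap. The rise was 0.55 on day 1 (SE 0.11, adjusted p = 0.00485) and 0.56 on day 3 (SE 0.11, adjusted p = 0.00696), with a difference between the times of 0.01 and an interval from -0.25 to 0.28. Its second probe gave 0.64 and 0.55. With scaling to the array median the rise at 1 dpi was 0.24 (adjusted p = 0.0762).

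Relb encodes the partner of p52 in the non-canonical branch and is also a target of the canonical one. Its brightest probe (mm9, chr7:20191722-20191781) read -0.78, -0.83 and -0.84 in Ctrl, -0.54, -0.61 and -0.63 at 1 dpi, and 0.12, -0.11 and -0.11 at 3 dpi. The groups are separate, and the step from 1 to 3 dpi is larger than the one before it. At 3 dpi Relb was 0.78 above Ctrl (SE 0.08, 1.72-fold, adjusted p = 1.77e-04) and 0.56 above 1 dpi (SE 0.08, adjusted p = 9.58e-04). With the mean of the probes the rise from 1 to 3 dpi was 0.19 and missed the threshold (adjusted p = 0.0510). At 1 dpi the change of 0.22 passed narrowly (adjusted p = 0.0401) but was close to that of all genes, with a relative value of -0.03 that turned to 0.09 without Ctrl replicate 1 and to 0.20 after quantile normalization. The change itself turned to -0.09 with scaling to the array median and to -0.04 in the deposited log2 table, and missed the threshold after quantile normalization (adjusted p = 0.0587), without the filter on dim probes (adjusted p = 0.0562) and without any 1 of 7 arrays, Ctrl replicate 2 or 3 and all those at 1 and at 3 dpi but 3 dpi replicate 1 (adjusted p up to 0.119).

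Nfkb1 encodes p105, the precursor of p50. On its brightest probe (mm9, chr3:135247898-135247958) the values were 3.65, 3.82 and 3.79 in Ctrl, 3.28, 3.37 and 3.38 at 1 dpi and 3.72, 3.75 and 3.79 at 3 dpi. The arrays at 1 dpi are all lower than the rest, and 3 dpi lies within Ctrl. This probe fell by 0.41 at 1 dpi (SE 0.07, adjusted p = 0.00155), then rose by 0.41 between the times (SE 0.07, adjusted p = 0.00205). At 1 dpi its change was -0.66 relative to all genes and -0.72 with scaling to the array median. Its level at 3 dpi differed from Ctrl by less than 0.16 in either direction at 95% confidence.

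Rela encodes p65, the main activating subunit, and Rel encodes c-Rel, best known from lymphocytes. Rela ranged from 4.03 to 4.33 over the 9 arrays and passed the test in none of the 3 comparisons. Its change was 0.09 at 1 dpi (interval -0.11 to 0.29) and -0.06 at 3 dpi (interval -0.25 to 0.14), and the sign at 1 dpi turned with each of the other scalings. Rel ranged from 2.31 to 2.61. Its rise of 0.20 at 1 dpi (adjusted p = 0.0441) was -0.05 relative to all genes, a value that turned to 0.10 without Ctrl replicate 1 and to 0.21 after quantile normalization. The rise itself turned to -0.12 with scaling to the array median. It also missed the threshold with the replicate number as a block (adjusted p = 0.0798), without the filter on dim probes (adjusted p = 0.0631), with only the compared groups in the fit (adjusted p = 0.0760), in 1 further alternative, and without any 1 array other than Ctrl replicate 1 (adjusted p up to 0.127). At 3 dpi Rel differed from Ctrl by 0.01, with an interval from -0.15 to 0.18.

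In order of level, Tnfaip3, Nfkbia and the brightest probe of Nfkbiz ran from 1 dpi over 3 dpi to Ctrl, each neighbour differing past the adjusted p. Of these steps, that from 1 to 3 dpi was lost in 4 of 21 alternatives for Nfkbia, in 3 of 20 for Nfkbiz and in 0 of 21 for Tnfaip3, and that from 3 dpi to Ctrl in 2, 5 and 1. Bcl3 ran from 3 dpi over 1 dpi to Ctrl with each step past it, and Relb did so too, with the narrow lower step given above. In Nfkbie and at the brightest probe of Nfkb1, 3 dpi and Ctrl were neighbours at the top that did not differ past the threshold, and 1 dpi was lower than both. For Nfkb2 both irradiated groups did not differ past it and were above Ctrl. For Rel and Rela 1 dpi was nominally highest. The pooled SD between arrays of a group ran from 0.04 for Nfkbie to 0.14 for Nfkb2, where the median over all genes was 0.16. That median was not matched for level, and the members' mean levels were above those of 62.8% (Relb) to 98.0% (Nfkbia) of genes.

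Probes of the same gene did not always move alike. Of the 20 member probes, 18 passed the filter, and 6 members had over 1 such probe. In a fit across probes, a second Nfkb1 probe (mm9, chr3:135275144-135275203) was lower than Ctrl at 1 dpi by a log2 difference of -0.48 and at 3 dpi of -0.58 (adjusted p = 0.00496), a time at which the brightest probe read 0.00. The last Nfkb1 probe (chr3:135254550-135254609) was higher at 1 dpi by 0.54 (adjusted p = 0.00250), opposite to both. A direction for Nfkb1 mRNA as a whole can therefore not be given, and the mean of its probes changed by -0.12 at 1 dpi (adjusted p = 0.118).

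The other probe of Rel (chr11:23641729-23641788) was 1.06 above Ctrl at 1 dpi (SE 0.14, adjusted p = 6.32e-04) and 0.02 above it at 3 dpi, a transient rise much larger than at the brightest probe. For Relb, a probe at chr7:20203058-20203117 was 0.87 higher at 1 dpi (SE 0.12, adjusted p = 7.11e-04) and 0.33 higher at 3 dpi, so that it peaked at 1 dpi. The remaining Relb probe at chr7:20191939-20191998 gave 0.22 and 0.77, close to the brightest one. The second probe of Rela gave 0.18 and -0.18. For Nfkbiz the second probe was 0.01 from Ctrl at 3 dpi (adjusted p = 0.942), where the brightest read 0.46. Which parts of the transcripts these positions fall in was not analysed here, as no annotation of mm9 was used.

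**Figure D3:**
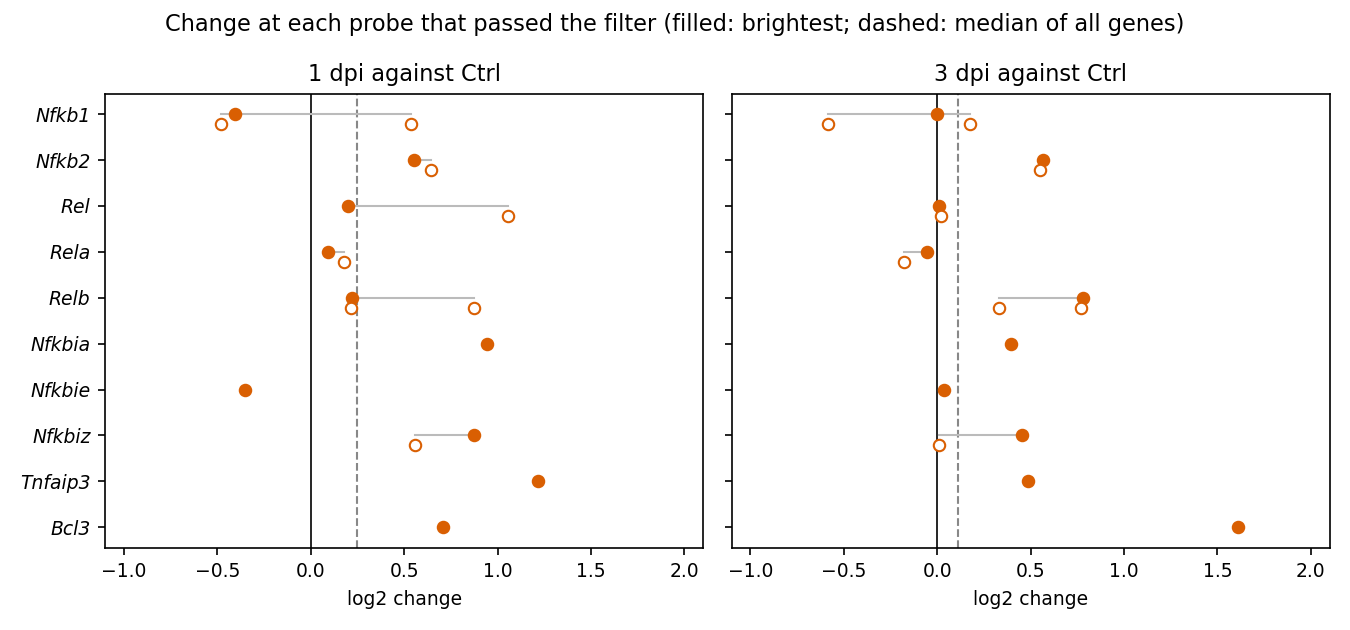
Log2 change against Ctrl at each member probe that passed the filter (x axis; filled points: brightest probe of the gene; open points: other probes, drawn slightly lower; grey lines: range; dashed line: median of all genes). At 1 dpi the probes of Nfkb1 span from -0.48 to 0.54, those of Rel reach 1.06 and those of Relb 0.87.

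The choice of probe matters for the authors' own table. In the deposited log2 table each gene name has 1 row. Each member row matched a single probe after quantile normalization, within 0.1 on the log2 scale and at most 0.0026 apart. For 5 of the 10 members, Nfkb1, Rel, Rela, Relb and Nfkbiz, that probe was not the brightest. Of all 20064 rows matched to a probe that passed the filter, 70.0% held the brightest one. Where a gene had several such probes, 2476 of 8485 rows did. The Nfkbiz row is the probe that was not well above background on any array, with values from 1.44 to 3.46, and it was not tested. The Rel row, in contrast, holds the probe with the transient rise, at 7.98, 7.96 and 7.94 in Ctrl, 9.01, 8.83 and 8.87 at 1 dpi and 8.27, 7.88 and 7.67 at 3 dpi.

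The genes around the members give the setting. Of 38 tested NF-κB target genes other than the members, 18 were called at 1 dpi (17 up, 1 down), 47.4% against 15.2% of all genes, and 13 at 3 dpi (12 up, 1 down), 34.2% against 8.8%. Their median log2 change was 0.84 and 0.58, or 0.59 and 0.46 relative to all genes. At 1 dpi the largest changes were in Saa3, an acute phase protein gene, with 4.49 (SE 0.08, 22.4-fold), in the chemokine gene Ccl2 with 3.24 (SE 0.06) and in Cxcl10 with 3.20 (SE 0.06), with adjusted p of 8.21e-08, 1.08e-07 and 1.08e-07. At 3 dpi they were in Saa3 with 3.74 (SE 0.08), in Cxcl1 with 3.51 (SE 0.15) and in Ccl2 with 3.26 (SE 0.06). All 3 arrays of the irradiated group lay above all Ctrl arrays in each case. The gene called lower was Ccr7 at both times, a chemokine receptor of lymphocytes and dendritic cells, with -1.96 and -1.85, named after its value was seen. Without Ctrl replicate 1, within slide 2, 16 and 14 genes of the list were called and the median was 0.63 and 0.58 relative to all genes.

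Receptors and ligands upstream of NF-κB were mixed. Of 29 tested, 12 were called at 1 dpi (10 up, 2 down) and 13 at 3 dpi (10 up, 3 down), which is 41.4% and 44.8% where all genes had 15.2% and 8.8%. The medians were 0.57 and 0.46, those of all genes 0.25 and 0.11. Tlr6, a Toll-like receptor gene, was up by 1.55 at 1 dpi (SE 0.08) and Il1b, the gene of interleukin 1β, by 1.44 (SE 0.06, adjusted p = 1.84e-06). At 3 dpi Tlr1 was 1.90 higher (SE 0.08) and Tlr5, the flagellin receptor gene, 1.69 higher (SE 0.22, adjusted p = 8.01e-04). Leaving aside genes that were dim on any array of a comparison, the largest change at each time was a fall. Tnfrsf13c, the gene of the BAFF receptor of B cells, which feeds the non-canonical branch, read 0.34 ± 0.04 in Ctrl, -2.65 ± 0.11 at 1 dpi and -2.93 ± 0.02 at 3 dpi (SD, n = 3).

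Next came the signalling core. Of 13 genes of the IKK complex and its kinases, 1 was called at 1 dpi and 0 at 3 dpi with limma, while 10 and 4 passed the adjusted p with no minimum fold. The shares of all genes, for this list and the next ones, were 15.2% and 8.8% called and 55.9% and 32% past the adjusted p. The called gene was Ikbke, an inducible IKK-related kinase, with 1.13 (SE 0.12, 2.18-fold, adjusted p = 2.19e-04), and the median of the list was -0.22, below the 0.25 of all genes. Of 34 adaptors and ubiquitin enzymes, 4 were called at 1 dpi (3 up, 1 down) and 2 at 3 dpi, both up (11.8% and 5.88%). Tnip3, which encodes a partner of A20, was 1.98 higher at 1 dpi (SE 0.21) and 1.02 higher at 3 dpi (SE 0.21, adjusted p = 0.00755). Without Ctrl replicate 1, the lowest array of Tnip3, the change at 3 dpi was 0.76 (SE 0.11, adjusted p = 0.00171), under 2-fold. Zc3h12a, the gene of an RNase that degrades inflammatory mRNAs, was 1.51 higher at 1 dpi (SE 0.27) and Irak2, a kinase gene of Toll-like receptor signalling, 1.11 higher (SE 0.13). Traf1, a known NF-κB target, was 1.53 higher at 3 dpi (SE 0.09, adjusted p = 1.18e-05). The gene called lower, Tank, with -1.06, is named after its value was seen. Of 6 other IκB-type inhibitors, 0 were called against Ctrl at either time, and 6 and 2 passed with no minimum fold.

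**Figure D4:**
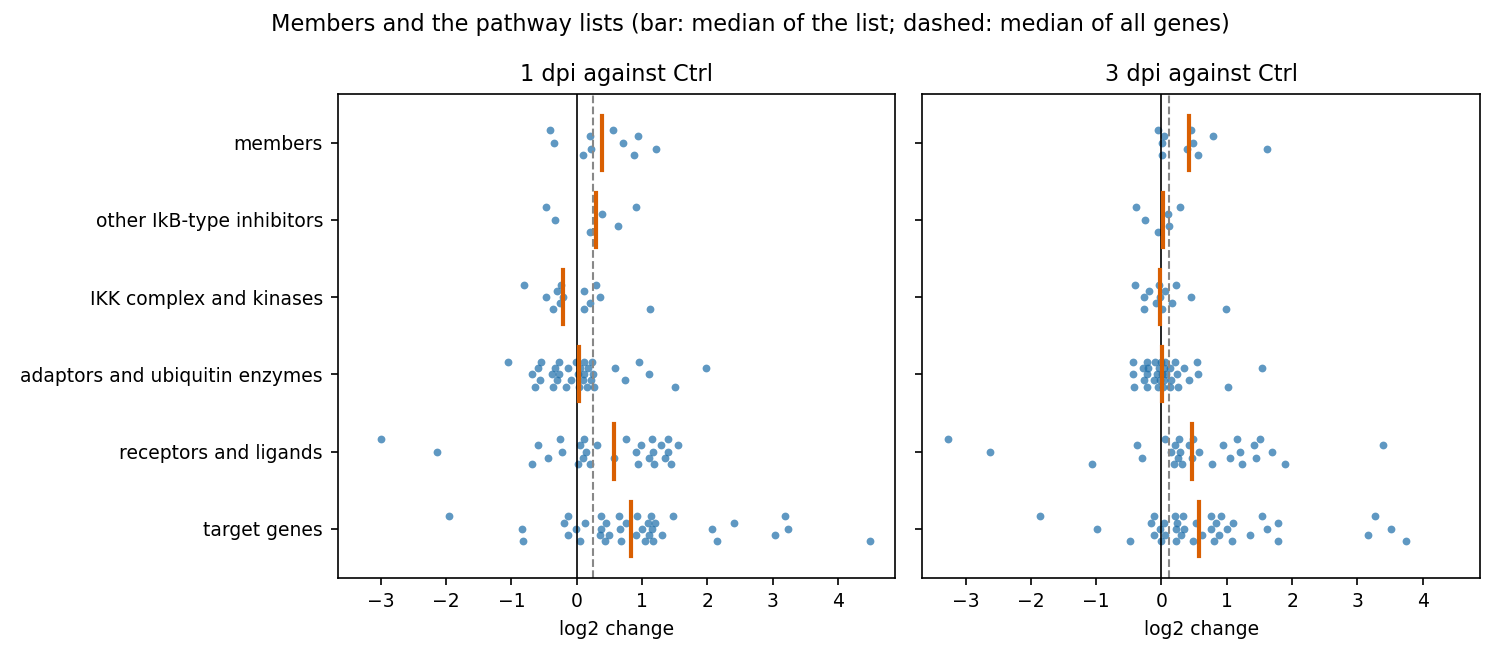
Log2 change against Ctrl of each tested gene of the members and of the 5 pathway lists (x axis; points: genes, shifted vertically to be visible; orange bars: list medians; dashed line: median of all genes). The bars of the target genes, at 0.84 and 0.58, and of the receptors and ligands, at 0.57 and 0.46, lie to the right of the dashed line, and those of the IKK genes, at -0.22 and -0.02, to its left, the latter turning to 0.05 against 0.01 for all genes without Ctrl replicate 1.

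The cell type named in the labels was checked against its markers. All 15 megakaryocyte markers were well above background on all 9 arrays, and their mean level was 1.47 ± 0.10 in Ctrl, 1.42 ± 0.07 at 1 dpi and 1.72 ± 0.01 at 3 dpi (SD, n = 3). None was called in either direction with limma, though single genes passed with smaller changes. Pf4, the platelet factor 4 gene and the brightest of them, changed by 0.09 at 1 dpi (adjusted p = 0.237) and 0.01 at 3 dpi. Itga2b, the gene of CD41, was 0.69 higher at 1 dpi (adjusted p = 1.28e-04), and Gp5, the gene of CD42d, was lower, with -0.54 (adjusted p = 0.0127).
Markers of other cells were present too, and several of their lists differed between the groups. Mean levels of Mpo and Ly6c2 were above those of 99.99% and 99.7% of genes. Those of Pf4, Itga2b and Gp5 were above 98.3%, 70.8% and 61.1%. Probe levels do not compare between genes, and the share of such cells was not measured. The 13 macrophage markers were all well above background on all arrays, with a mean level of 0.10 ± 0.05 in Ctrl, 0.89 ± 0.05 at 1 dpi and 2.18 ± 0.01 at 3 dpi, with 6 up and 1 down at 1 dpi and 11 up at 3 dpi among the called. The brightest, Cd68, rose by 1.36 and 1.80. The 10 neutrophil markers, all well above background on all arrays and led by Mpo, had a mean level of 6.28 ± 0.06, 6.80 ± 0.05 and 6.25 ± 0.05 in the same order. For Mpo the rise at 1 dpi came to 0.92 (SE 0.07, adjusted p = 5.54e-05), and 2 and 0 markers of that list were called higher.
The mean of the 12 B cell markers was -0.14 ± 0.02, -2.71 ± 0.03 and -2.55 ± 0.08, with 9 and 10 called lower and Cd79b the brightest. Of 9 stromal markers, led by Cxcl12, 6 were called higher at each time, and their mean went from -1.43 ± 0.24 over 0.08 ± 0.14 to 1.13 ± 0.08. Of 8 endothelial markers, led by Stab2, 3 and 5 were called higher, and of 10 T and NK cell markers, led by Nkg7, 2 and 5. Of 9 erythroid markers, led by Tfrc, 8 and 7 were called lower. Of 10 tested markers of monocytes and dendritic cells, led by Ly6c2, 1 was called higher and 2 lower at 1 dpi and 1 each at 3 dpi, and Xcr1 was not well above background in any group. The members are expressed in many of these cell types, as are many genes of the pathway lists, and the part of such cells in the changes of both was not tested.

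**Figure D5:**
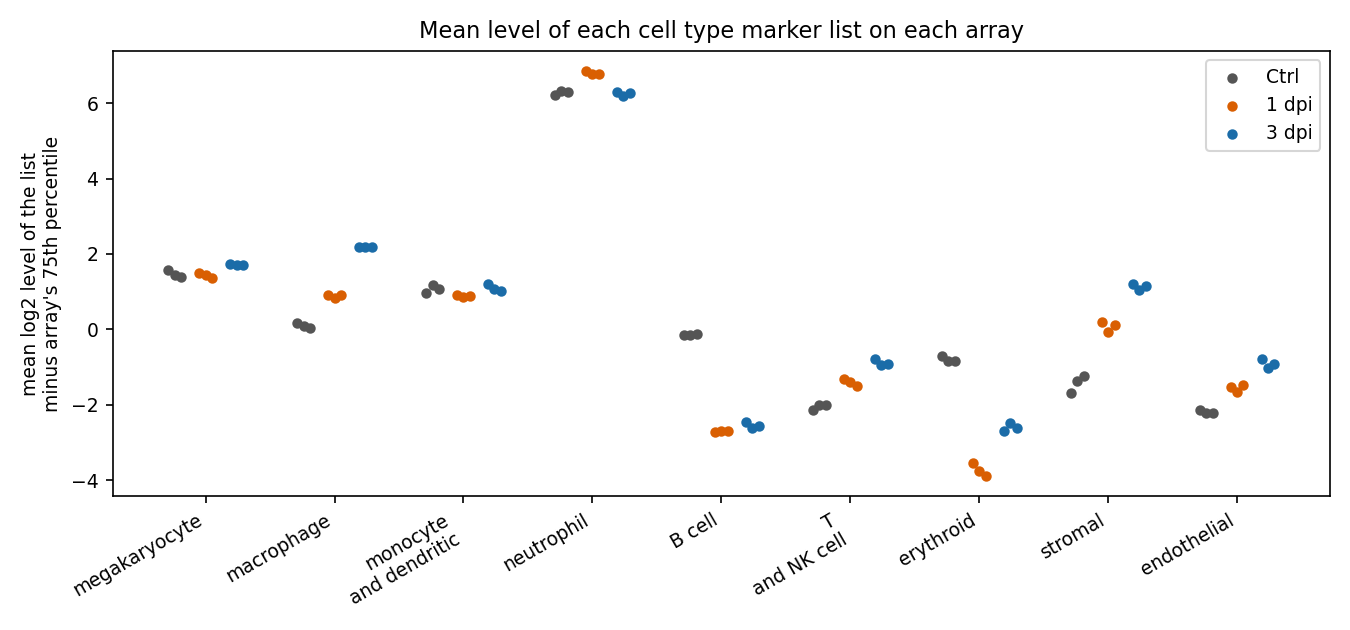
Mean level of each cell type marker list on each of the 9 arrays (y axis: mean log2 intensity of the tested genes of the list minus the array's 75th percentile; colours: groups of 3 arrays). The megakaryocyte list stays between 1.35 and 1.73 while the macrophage and stromal lists step up from Ctrl over 1 dpi to 3 dpi and the B cell list drops at 1 dpi.

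For each member the genes with the most similar levels over the 9 arrays were taken among 23997 genes well above background on all arrays. With so many genes and so few arrays in 3 groups, high values are found for almost any profile, and the correlations are a description. Tnfaip3 was closest to Clec4d (r = 0.998) and Psrc1 (r = 0.998), and Nfkbia to Gadd45b (r = 0.995), itself on the list of target genes, and St14 (r = 0.994). Bcl3 was closest to Slc16a10 and Rasgrf2 (both r = 0.998), Relb to Glmp (r = 0.996) and Slc12a7 (r = 0.995), and Nfkbiz to Il1f9 (r = 0.989) and Oas1g (r = 0.987). For Nfkb1 the nearest were Cybb and Glmn, for Nfkb2 Tma16 and Rpa1, for Nfkbie Zrsr1 and Ppp1cb, for Rel Tgif1 and Bet1l, and for Rela Gm36279 and Nudcd3, with r from 0.962 to 0.995.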

How the data were processed

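Per the labels, total RNA of mMKs was labelled with Cy3 and hybridized to 1-colour Agilent arrays. The paper's methods describe an Affymetrix chip, and its results speak of RNA-seq in 1 place and of a microarray in another. Neither the Affymetrix chip nor RNA-seq was taken as the source of these values. For every array the intensity of each spot was deposited by the authors, made with Agilent Feature Extraction 10.7.1.1, background subtracted and arrays not scaled to each other. A further file deposited by the authors gives log2 values for 27275 gene names. Its making is not stated in the sources used here, but 27050 of its rows lay within 0.1 of a quantile-normalized probe of the same name.

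Each array has 59305 spots with a probe besides 3671 controls. Outlier spots were dropped, with the loss of 20 probes, and replicate spots averaged. Probes were named by RefSeq accession (GRCm38.p6, 32994 of 56605 probes), otherwise by the array's gene name. The main value is log2 intensity minus the array's 75th percentile. A probe had to be well above background on every array of some group, and the brightest probe over the 9 arrays stood for its gene, which left 29410 genes. The test was that of limma 3.58.1 under R 4.3.3, with a mean per group and a shared spread, with Benjamini-Hochberg adjustment over all genes. Called means an adjusted p under 0.05 and at least a 2-fold change. The code was tested on simulated data. Reading used the R package data.table, version 1.17.8, and plotting used Python 3.11.15 and matplotlib 3.10.9. The number of arrays limits the precision.

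The members, the 5 pathway lists and the marker lists were chosen with earlier results of these data known. Named genes are the members with every probe, for each pathway list and time the 3 most changed of its called genes (against Ctrl, every array of both groups well above background), Itga2b, Gp5, Pf4 and the brightest gene of each marker list, and the 2 genes most correlated with each member. Alternatives covered scaling, background correction, the deposited table, the filter, the probe rule, the arrays in the fit, slide and replicate blocks, the prior, the methods' t-test, the minimum fold and each array left out.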

Additional observations from a re-analysis of the deposited data

Results flagged for a closer look

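The change since Ctrl differed between 1 and 3 dpi for 7 of the 10 members, by the limma contrast of both times, which tests the difference itself. The difference, as log2 level at 3 dpi minus that at 1 dpi, was 0.41 for Nfkb1, 0.56 for Relb, 0.38 for Nfkbie and 0.90 for Bcl3, and -0.55 for Nfkbia, -0.42 for Nfkbiz and -0.73 for Tnfaip3 (adjusted p from 8.52e-05 for Tnfaip3 to 0.0151 for Nfkbiz). Of all genes, 44.6% passed in this contrast, 19.8% higher and 24.9% lower, and the median was -0.11. No member reached a 2-fold change here, where 8.8% of all genes did. With median scaling 5 of the 7 passed (4 higher, 1 lower). With the deposited values 4 of the 7 did, Relb, Nfkbie, Tnfaip3 and Bcl3, and Nfkbiz was not tested. The fall of Nfkbia was lost in 4 of 21 alternatives (adjusted p up to 0.0861), that of Nfkbiz in 3 of 20 (up to 0.259), and the rise of Relb in 1 (0.0510). The sign for Nfkb1 turned in 2. No array at 3 dpi overlapped with those at 1 dpi in 9 of the 10 members, among them Rel and Rela, which did not pass. The share over all genes was not counted, so this does not set the 7 apart. For Nfkb1 the direction belongs to the brightest probe, since its other probes gave -0.10 and -0.36. For Relb a further probe gave -0.54, opposite to 0.56. The other probe of Rel, a gene whose brightest probe did not pass (-0.19, adjusted p = 0.0636), gave -1.04. Rel fell past the threshold in 10 of 21 alternatives.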

How the results depend on the processing

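Over 209 member values per comparison (each member under each alternative that tested it), direction and side of the adjusted p held for 178 at 1 dpi and 182 at 3 dpi against Ctrl and for 180 between the times. The alternatives are not independent. Quantile normalization and the deposited table share the probe and nearly the same values for Nfkb2, Nfkbia, Nfkbie, Tnfaip3 and Bcl3. Tnfaip3, Nfkbia, Nfkbie and Nfkbiz at 1 dpi, and Bcl3 and Relb at 3 dpi, kept both under all alternatives that tested them. Quantile normalization, normexp background correction with quantile normalization (written normexp below, not run alone) and median scaling moved the median change of all genes at 1 dpi by -0.25, -0.25 and -0.32, and the higher fraction of the called genes from 81.1% to 56.2%, 68.8% and 48.8%. Between the times that share went from 45.2% to 62.9%, 52.6% and 67.2%, and to 26.7% without the filter on dim probes and 36.5% with probes bright on all 9 arrays. The cause of the changes below was not tested.

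The number of genes called was 4468, 2587 and 2588 in the 3 comparisons. Normexp gave 1660, 1142 and 1079, no minimum fold 16443, 9416 and 13125, and no filter on dim probes 4489 between the times. Members past the adjusted p numbered 9, 6 and 7. With median scaling they were 5, 3 and 5 (49.1%, 25% and 35.7% of all genes), among the 9 members tested with the deposited values 7, 6 and 5 (56%, 37.5% and 49.7%), and with the methods' t-test 8, 3 and 7 (42.9%, 24.2% and 48.7%). Without adjustment 9, 6 and 9 members passed the t-test. That test lost Nfkb2, Nfkbia and Nfkbiz at 3 dpi (adjusted p of 0.0610, 0.0548 and 0.0695) and Nfkbiz between the times (0.0634). It lost Rel at 1 dpi (0.0698) and gained it between the times (0.0425). It called 3360, 2207 and 2524 genes after adjustment, and 15674, 10523 and 16909 passed without adjustment or minimum fold. At the 2-fold limit the count of 1 member at 1 dpi fell to 0 with quantile normalization, normexp, median scaling and the deposited table, and between the times median scaling gave 1. Leaving out 1 array gave 7 to 9, 5 to 6 and 6 to 8 members past the adjusted p. Of all genes, 45.2% to 58.1%, 25% to 36.1% and 34% to 59.2% then passed it. The genes called, with the 2-fold limit, numbered 3561 to 5367, 2347 to 2768 and 2264 to 2812.

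Signs turned for small changes. At 1 dpi Rela turned with quantile normalization (-0.10), normexp (-0.10), median scaling (-0.22) and the deposited table (-0.11), Relb with median scaling (-0.0927) and that table (-0.0440), and Rel with median scaling (-0.12). At 3 dpi Nfkb1 turned with quantile normalization (-0.0815), median scaling (-0.12), normexp (-0.0645), the deposited table (-0.56, adjusted p = 0.00524, another probe), the mean of its probes (-0.14) and the slide as random block (-0.0344), and ranged from -0.0489 to 0.0331 without single arrays. Rel turned at 3 dpi with quantile normalization (-0.0269), median scaling (-0.11), normexp (-0.0145) and the deposited table (-0.0202), and ranged from -0.0245 to 0.0632 without single arrays. Nfkbie turned with median scaling (-0.0897), and Rela with the slide block (0.00230) and without Ctrl replicate 1 (0.0261). Between the times Nfkb2 turned with quantile normalization (-0.0123), normexp (-0.0276), the deposited table (-0.0103), the mean of its probes (-0.0406) and without single arrays (-0.0291 to 0.0805), Nfkb1 in that table (-0.0989) and with the mean of its probes (-0.0183), and Rel (0.00180) and Rela (0.0451) with median scaling.

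Same-numbered arrays of different groups shared no deviation (r from -0.11 to 0.13 over 9 pairs), so the labels share only a number. With the replicate block 4273, 2498 and 2494 genes were called. Past the adjusted p were 8, 6 and 7 members (52.4%, 29.3% and 41.3% of all genes), and apart from Rel at 1 dpi no member changed its side. Slide 2 held all groups. Slide as a fixed block equals leaving out Ctrl replicate 1, which gave 9, 6 and 8 members past the adjusted p (58.1%, 36.1% and 59.2% of all genes). As a random block it gave 9, 6 and 8 (57.5%, 34.9% and 55.4%). The members' median change at 3 dpi relative to all genes was 0.31, and 0.42 within slide 2. Signal over background limits the dim probes of Nfkbiz and Bcl3.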
